A study of Rattus norvegicus with 10 samples.

Results

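The genes that make, split and spend arginine, and those that turn ornithine into polyamines and break polyamines down, were examined in distal colon epithelium of rats fed a bile acid. The group held 10 genes, chosen by symbol from the 23422 genes of the table with the results of the diet comparison already known: Ass1, Asl, Arg1, Arg2, Nos2, Oat, Odc1, Srm, Sms and Sat1. All 10 were found, and 8 passed the filter on low counts, with Nos2 and Srm left out of the test. Because the genes were selected on the same comparison, their differences between diets are given as a description, with no p values, and only the surrounding pathway genes carry tests. The lists of pathway genes were also chosen with earlier results of these data known, which limits their p values too.

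The animals were male Wistar Munich rats, and all of them ate the same standard chow through 3 days of acclimatization in single-animal cages. Of 12 rats, 6 then received sodium cholate, a salt of the bile acid cholic acid, mixed into that chow at 1% w/w, and the others stayed on plain chow, in both cases for 10 days. Cells were shaken from the last part of the colon after incubation with EDTA, which loosens the epithelium, and RNA was sequenced from the 5 rats per diet that gave the most concentrated RNA. The groups were therefore control rats 1, 2, 5, 6 and 9 and cholate rats 3, 4, 7, 8 and 11, each library being a separate animal.

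Arginine is made from citrulline and aspartate by argininosuccinate synthase (Ass1) and argininosuccinate lyase (Asl). Arginases split it into urea and ornithine: Arg1 is the cytosolic enzyme best known from the liver urea cycle, and Arg2 is the mitochondrial enzyme found in many other tissues, while inducible nitric oxide synthase (Nos2) uses the same arginine to make nitric oxide and citrulline. Ornithine goes either through ornithine aminotransferase (Oat) towards glutamate and proline, or through ornithine decarboxylase (Odc1) to putrescine. Spermidine synthase (Srm) and spermine synthase (Sms) then build the larger polyamines, which dividing cells need, and the acetyltransferase Sat1 marks them for export or oxidation.

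Levels are CPM, a gene's counts scaled to a common library size by TMM, given per rat or as mean ± SD over 5 rats. Differences are on the log2 scale, cholate over control, from the edgeR quasi-likelihood fit of all 12385 genes tested, with an approximate standard error (SE). A gene was called when its Benjamini-Hochberg adjusted p was under 0.01 and its fold change over 2, the criteria of the series' design text. Over all genes 3.21% were called, 1.1% higher and 2.12% lower, and in 13.1% the values of the 5 cholate rats did not overlap those of the 5 control rats. Among the 8 tested members 2 were called, both higher (Arg2 and Ass1), and in 3 (Arg2, Ass1 and Oat) the diets did not overlap. Nothing is read from these shares, since the same comparison chose the members. For a member, a call or a criterion passed or missed describes the fit and is not a test. Their median log2 change was 0.05, with 4 above and 4 below 0, against a median of -0.01 over all genes tested.

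Libraries held 14337356 (cholate rat 11) to 45285762 counts (cholate rat 4). Principal components were taken from the 9766 tested genes with a mean of at least 5 CPM. The first, with 57.2% of the variance, set control rats 9 and 5 and cholate rats 8 and 11 (loadings 0.426, 0.078, 0.542 and 0.404) apart from the other 6 rats (-0.29 to -0.21). The second, with 27.6%, separated the diets. Rats 8, 9 and 11 were also the 3 shallowest libraries, while control rat 5 held 25957175 counts. Within each diet the rats with positive loadings had the highest share of counts from mitochondrial genes. It was 19.7% and 23.6% in control rats 5 and 9, against 15.9% to 18.4% in the other controls. On cholate it was 18.4% and 18.7% in rats 8 and 11, against 11.7% to 17.2%. What the component reflects was not tested. Log2 changes of the 8 tested members are therefore given below with and without the 4 rats. Colonocyte markers summed to 10010 to 12180 CPM in control rats and 16160 to 20910 on cholate, with 3 of 8 called higher, and 2 of 8 proliferation markers were called higher (sums 659.8 to 804.3 and 806.6 to 1256 CPM). Of 5 enteroendocrine markers 2 were called higher (sums 203 to 272.8 and 276 to 522.5 CPM), with a median log2 change of 0.02. The diets were not separated in every marker of these lists. Values overlapped between diets for Epcam, Cdh1, Krt8 and Slc26a3 of the colonocyte list and for Chga, Chgb and Neurod1 of the enteroendocrine list. They also overlapped for Mki67, Top2a, Pcna, Mcm2 and Cdk1 among proliferation markers. Smooth muscle and stroma markers, mostly the muscle filament gene Des (66.6% of the sum), ran from 44 to 64.9 CPM in controls and 10.6 to 14.1 on cholate, with 1 of 3 tested markers called lower and Col1a2 at 0 in every library. Goblet cell markers overlapped between diets, and the part of these shifts in the member values was not tested. In bulk RNA, fewer cells of a type and less RNA per cell cannot be told apart.

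RefSeq promoters of build GRCr8, another build than the files' rn6, matched 7 of the 10 members by symbol (Ass1, Asl, Oat, Odc1, Srm, Sms and Sat1). Of those, the 250 bases before the start are printed for Ass1 (chr3:35149480-35149729, plus strand), Oat (chr1:196797755-196798004, minus strand) and Sat1 (chrX:44007839-44008088, plus strand), the matched members with the largest differences between diets, 5′ to 3′ and in capitals where a searched motif matched.
Ass1: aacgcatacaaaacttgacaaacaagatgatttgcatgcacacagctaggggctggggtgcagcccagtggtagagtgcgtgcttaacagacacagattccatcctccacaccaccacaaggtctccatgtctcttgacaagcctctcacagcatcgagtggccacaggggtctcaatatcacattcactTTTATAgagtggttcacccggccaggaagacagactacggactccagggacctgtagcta
Oat: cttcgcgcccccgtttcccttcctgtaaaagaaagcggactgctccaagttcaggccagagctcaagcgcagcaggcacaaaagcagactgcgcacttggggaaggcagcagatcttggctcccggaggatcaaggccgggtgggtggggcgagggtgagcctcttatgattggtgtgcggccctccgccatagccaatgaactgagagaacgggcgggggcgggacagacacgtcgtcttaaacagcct
Sat1: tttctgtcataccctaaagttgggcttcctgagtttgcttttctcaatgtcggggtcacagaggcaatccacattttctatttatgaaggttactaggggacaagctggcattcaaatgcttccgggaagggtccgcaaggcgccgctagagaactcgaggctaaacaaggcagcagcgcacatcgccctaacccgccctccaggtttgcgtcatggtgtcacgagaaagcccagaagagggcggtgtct
The capitals in Ass1 are a TATA box, TATAAA, read on the other strand, at positions -60 to -55 (counted back from the start site). GC content was 51.2% for Ass1, 60.8% for Oat and 52.8% for Sat1, against 78.0% for Odc1, 78.4% for Srm, 72.8% for Sms and 64% for Asl. Beside the TATA box, 4 words and 1 pair were searched on both strands. The words were the E-box (CACGTG), the cyclic AMP response element (TGACGTCA), the AP-1 element (TGANTCA) and the core hexamer of nuclear receptor sites (AGGTCA). The pair was that hexamer followed by its reverse complement 1 base on, which therefore also counts as a hexamer match. Besides Ass1, only Srm held a match, an E-box at positions -173 to -168. Among 33465 promoters of the same length, 12.9% held the TATA box, 5.59% the E-box, 1.59% the cyclic AMP element, 6.34% the AP-1 element, 14.1% the hexamer and 0.0269% the pair. A match is a description of the letters and not a site in use.

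**Figure D1:**
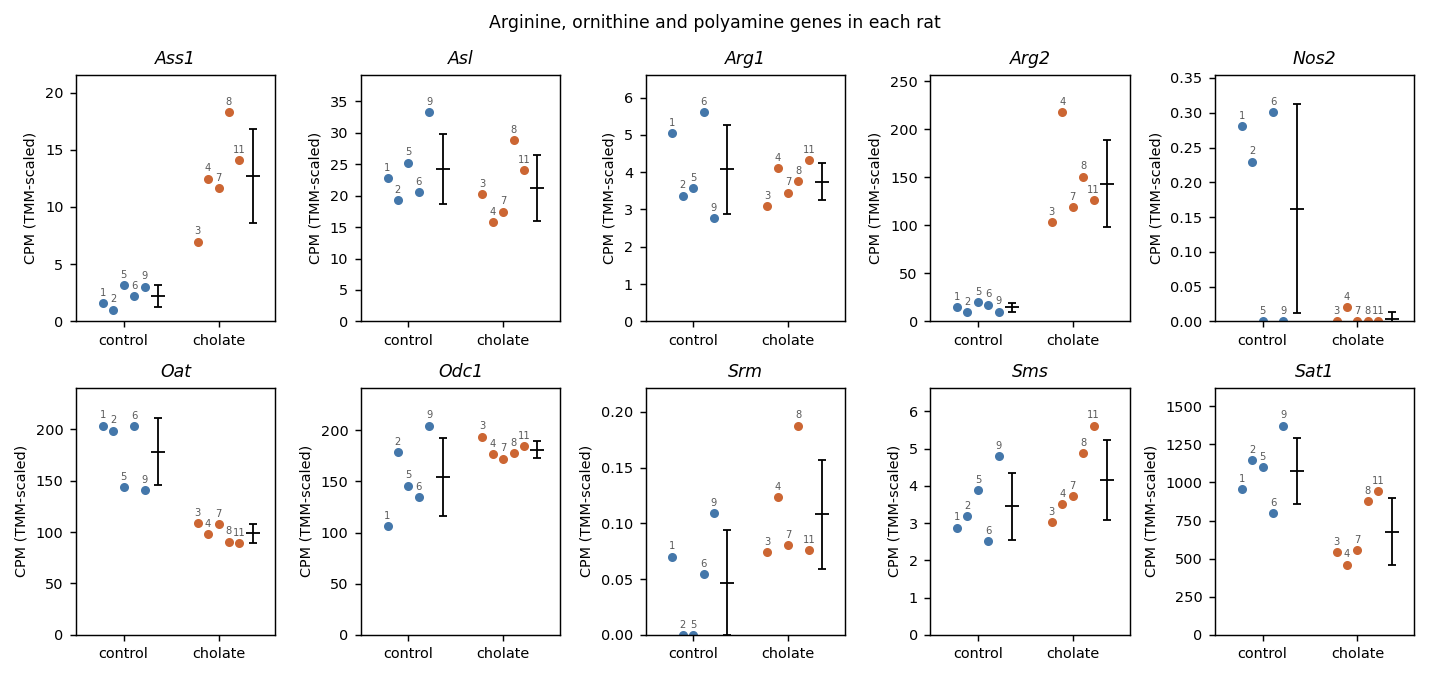
CPM of each of the 10 members in each rat, numbered as in the labels, with control rats in blue, cholate rats in orange and black bars for the mean ± SD of 5 rats (each panel has its own axis from 0). Cholate rats lie above control rats for Ass1 and Arg2 and below them for Oat, and the diets overlap for the other 7 genes.

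Ass1 (gene ID 25698, rn6 chromosome 3, 10327411 to 10375847, minus strand) measured 1.58, 1.03, 3.21, 2.24 and 3.05 CPM in control rats 1, 2, 5, 6 and 9. On cholate it measured 6.98, 12.5, 11.6, 18.3 and 14.1 CPM in rats 3, 4, 7, 8 and 11. The lowest cholate rat stood above the highest control rat by more than the whole control range. The means were 2.22 ± 0.933 and 12.7 ± 4.10 CPM, a log2 change of 2.51 (SE 0.35) or 5.71-fold, and the gene was called. Within each diet the rats with positive loadings were the highest: 3.05 to 3.21 against 1.03 to 2.24 CPM in controls, and 14.1 to 18.3 against 6.98 to 12.5 CPM on cholate. In the 6 other rats alone the log2 change was 2.69.

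Asl (gene ID 59085, chromosome 12, 30160922 to 30178348, plus strand), which completes arginine synthesis, overlapped between the diets. It measured 22.7, 19.3, 25.3, 20.5 and 33.3 CPM in the 5 control rats and 20.2, 15.8, 17.5, 28.8 and 24.1 CPM in the 5 cholate rats, in the order of rats given above. All but 2 cholate rats lay inside the control range, with means of 24.2 ± 5.54 and 21.3 ± 5.25 CPM and a log2 change of -0.19 (SE 0.21). Control rat 9 and cholate rat 8 were the highest of their diets. The 6 rats with negative loadings alone gave a log2 change of -0.20. Per kilobase of deposited length, control rats held 10.9 ± 3.89 times as much Asl as Ass1 (7.04 to 16.6), and cholate rats 1.6 ± 0.573 times (1.13 to 2.59).

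Arg2 (gene ID 29215, chromosome 6, 102311097 to 102338406, plus strand) had the largest difference of the group. Control rats 1, 2, 5, 6 and 9 held 15.3, 10.0, 20.3, 17.5 and 10.2 CPM, and cholate rats 3, 4, 7, 8 and 11 held 103.5, 217.6, 119.0, 150.6 and 125.9 CPM. The lowest cholate rat (103.5 CPM) stood far above the highest control rat (20.3 CPM). The means were 14.7 ± 4.53 and 143.3 ± 44.9 CPM, a log2 change of 3.29 (SE 0.28) or 9.75-fold, with a coefficient of variation near 31% in both diets (30.8% and 31.3%). Rats with positive loadings overlapped the others within both diets, and the 6 other rats gave a log2 change of 3.39. An annotated pseudogene, LOC102548255, lies on the opposite strand inside Arg2 but shares 0 bases with its exons.

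Arg1 (gene ID 29221, chromosome 1, 21525421 to 21537872, plus strand) stayed low in both diets. It measured 5.05, 3.37, 3.58, 5.61 and 2.78 CPM in control rats and 3.10, 4.11, 3.45, 3.76 and 4.33 CPM in cholate rats. All 5 cholate rats lay inside the control range, with means of 4.08 ± 1.2 and 3.75 ± 0.492 CPM. The log2 change was -0.13 (SE 0.24), and its sign turned to 0.02 without control rat 6. In the 6 rats with negative loadings alone it was -0.36, the lowest of all settings. Of the counts of both arginases, Arg2 thus made up 75.2%, 74.8%, 85.0%, 75.7% and 78.7% in control rats and 97.1%, 98.2%, 97.2%, 97.6% and 96.7% in cholate rats (77.9 ± 4.27% and 97.3 ± 0.555%). Per deposited length the ratio of Arg2 to Arg1 was 3.37 ± 1.04 in controls and 34.7 ± 8.44 on cholate.

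Nos2 (gene ID 24599, chromosome 10, 66188290 to 66221621, plus strand), which competes with arginase for arginine, was near the limit of detection. Control rats 1, 2 and 6 had 8, 6 and 11 counts, control rats 5 and 9 had 0, cholate rat 4 had 1 and the other 4 cholate rats had 0. For a rat with 0 counts the limit is 3 counts, or 0.112 and 0.163 CPM in control rats 5 and 9 and 0.0803 to 0.228 CPM in cholate rats 3, 7, 8 and 11. Summed over rats, 1 count on cholate against 25 in controls gave a CPM ratio of 0.0383 (exact 95% interval 0.000934 to 0.234, for counting error only). The control counts came only from rats with negative loadings, so the spread among control rats was as wide as the difference between diets. Macrophages are a well known source of Nos2. Their markers summed to 205.8 to 278.0 CPM in controls and 219.3 to 276.3 CPM on cholate, but 93.1% of the sum was Cd14. The median log2 change of the 7 tested markers was 0.53. Of these, 0 were called by edgeR, DESeq2 or limma-voom (1 had an unadjusted p under 0.05). The part of such cells in the Nos2 counts was not tested. Granulocyte markers, 81.8% of them S100a9, summed to 10.5 to 27.4 CPM in controls and 16.1 to 33.3 on cholate, Mpo and Elane had 0 counts in every library, and 0 of 2 tested were called by edgeR, DESeq2 or limma-voom (0 at an unadjusted p under 0.05).

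**Figure D2:**
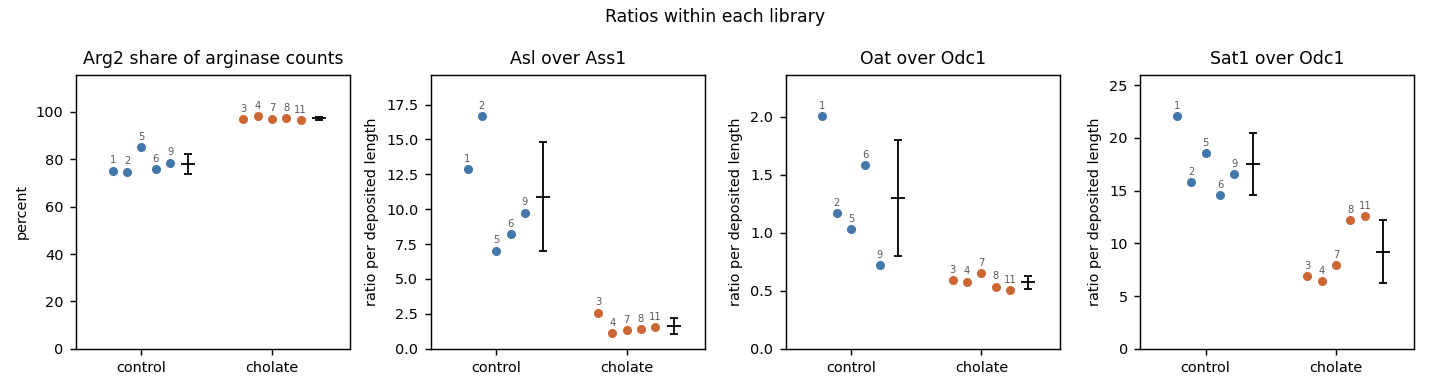
Ratios within each library, by rat, with mean ± SD of 5 rats in black: the percent of arginase counts that came from Arg2, then Asl over Ass1, Oat over Odc1 and Sat1 over Odc1 per kilobase of deposited length. The diets do not overlap in any of the 4 panels, with Arg2 at 74.8% to 85.0% of arginase counts in controls and 96.7% to 98.2% on cholate.

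Oat (gene ID 64313, chromosome 1, 204562289 to 204582070, minus strand) went the other way. Control rats held 203.7, 198.8, 143.6, 203.1 and 141.0 CPM, and cholate rats 108.8, 97.8, 107.5, 90.8 and 88.9 CPM. The control values formed 2 levels, rats 1, 2 and 6 at 198.8 to 203.7 and rats 5 and 9 at 141.0 to 143.6, and all cholate rats lay below both. The means were 178.0 ± 32.7 and 98.8 ± 9.21 CPM, a log2 change of -0.85 (SE 0.14) or 0.555-fold, which passed the false discovery rate but not the fold criterion. Rats with positive loadings were the lowest on cholate too (88.9 to 90.8 against 97.8 to 108.8 CPM), and the 6 other rats gave -0.92.

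Odc1 (gene ID 24609, chromosome 6, 42852529 to 42859142, plus strand), the first enzyme of polyamine synthesis and a short-lived protein controlled largely after transcription, differed more in its spread than in its mean. It measured 106.7, 178.9, 145.9, 134.7 and 204.8 CPM in control rats and 193.9, 177.1, 172.4, 177.7 and 184.8 CPM in cholate rats. All cholate rats lay within the upper part of the control range, with a coefficient of variation of 4.63% against 24.9% in controls. Means were 154.2 ± 38.3 and 181.2 ± 8.40 CPM, and the log2 change was 0.23 (SE 0.16). It was 0.40 in the 6 other rats and 0.13 without control rat 1, the lowest of all. An Odc pseudogene is annotated in this genome, and how reads were assigned between the copies is not known.

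The RNA ratio of the 2 users of ornithine, Oat and Odc1, differed between diets. It restates their own log2 changes (-0.85 for Oat and 0.23 for Odc1) and does not measure how much ornithine each enzyme uses. Per deposited length, Oat over Odc1 was 2.0, 1.17, 1.03, 1.58 and 0.723 in control rats and 0.589, 0.580, 0.655, 0.536 and 0.505 in cholate rats. Every cholate rat was below every control rat, although control rat 9 came close. Arg2 over Odc1 was 0.135 ± 0.0608 in controls and 1.04 ± 0.346 on cholate, and Arg2 over Oat 0.106 ± 0.0423 and 1.82 ± 0.622.

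Downstream, Srm (gene ID 84596, chromosome 5, 165405168 to 165408325, plus strand) was hardly counted at all. Control rats had 2, 0, 0, 2 and 2 counts, and cholate rats had 2, 6, 3, 3 and 1. The sums of 6 and 15 gave a CPM ratio of 2.40 with an exact 95% interval of 0.879 to 7.54, which covers counting error only, so no difference was detectable from these counts. Whether the near absence of Srm counts in every library reflects its expression or how reads were mapped and counted was not tested. Sms (gene ID 363469, chromosome X, 40363646 to 40415110, plus strand) measured 2.88, 3.18, 3.88, 2.52 and 4.79 CPM in control rats and 3.03, 3.51, 3.72, 4.88 and 5.62 CPM in cholate rats. Its diets overlapped (3.45 ± 0.902 and 4.15 ± 1.07 CPM, log2 change 0.26, SE 0.25), and in both the rats with positive loadings were the highest. The 6 other rats gave a log2 change of 0.30.

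Sat1 (gene ID 302642, chromosome X, 43626480 to 43629767, plus strand), the rate-limiting enzyme of polyamine breakdown, was the most abundant member. Control rats held 953.9, 1149, 1099, 797.8 and 1374 CPM, and cholate rats 544.6, 460.2, 556.9, 879.7 and 942.6 CPM. Cholate rats 8 and 11 reached the control range, and the other 3 stayed below it. The means were 1075 ± 216.1 and 676.8 ± 218.3 CPM, a log2 change of -0.67 (SE 0.22), which did not pass the false discovery rate. Among rats with negative loadings the diets did not overlap (797.8 to 1149 CPM in controls, 460.2 to 556.9 CPM on cholate) and the log2 change was -0.86. The ratio of Sat1 to Odc1 per deposited length was 17.5 ± 2.91 in controls and 9.22 ± 2.96 on cholate, with no overlap.

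**Figure D3:**
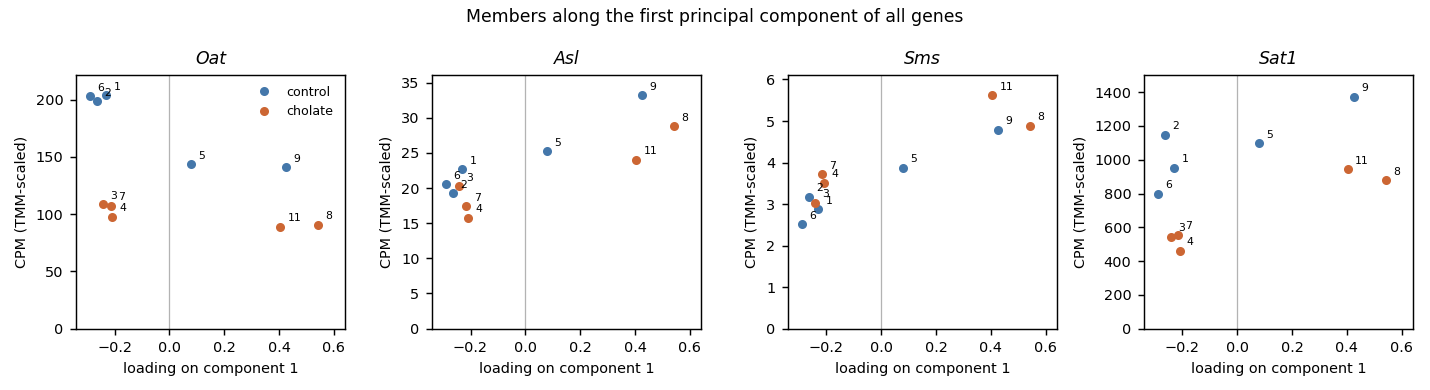
CPM of Oat, Asl, Sms and Sat1 (vertical axes from 0) against each library's loading on the first principal component of the 9766 tested genes with a mean of at least 5 CPM (horizontal axis, no unit), with rats numbered and coloured by diet. Oat is lower, and Asl and Sms higher, in rats 5, 9, 8 and 11 of both diets, while for Sat1 this holds only among cholate rats.

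Levels of different genes were compared per kilobase of the deposited gene length, here always the deposited effective length. Over all genes 86.6% of these lengths are multiples of 3, as coding lengths would be. The deposited length of Sat1, 562 bases, is not a multiple of 3, against 2236 exon bases in the annotation. In control rats Sat1 came first at 1912 ± 384.6 CPM per kilobase, followed by Oat at 134.9 ± 24.8 and Odc1 at 111.3 ± 27.7, whose ranges overlapped. Asl at 17.5 ± 4.0 and Arg2 at 13.8 ± 4.25 also overlapped, as did Arg1 at 4.19 ± 1.23 with Sms at 3.13 ± 0.819, and Sms with Ass1 at 1.79 ± 0.753. On cholate Sat1 was still first at 1204 ± 388.4 CPM per kilobase. Arg2 at 134.6 ± 42.1 and Odc1 at 130.7 ± 6.06 came next and were not separable, ahead of Oat at 74.8 ± 6.98. Asl at 15.3 ± 3.79 and Ass1 at 10.2 ± 3.31 overlapped, above Arg1 at 3.86 ± 0.506 and Sms at 3.77 ± 0.968. Arg2 thus moved from place 5 to place 2 and Ass1 from place 8 to place 6. With exon lengths from the annotation Sat1 was still first (480.6 ± 96.7 and 302.7 ± 97.6 CPM per kilobase) and the order was the same, apart from Arg1 with Sms on cholate and Nos2 with Srm in controls, pairs whose ranges overlapped.

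**Figure D4:**
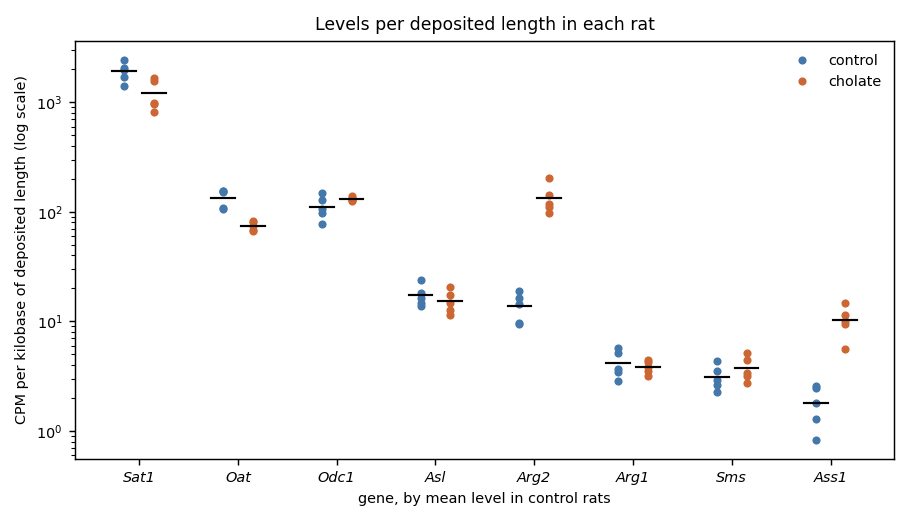
CPM per kilobase of deposited length (log scale) of the 8 tested members in each rat, ordered by their mean in control rats, with a line at each mean of 5 rats. Arg2 on cholate (134.6 CPM per kilobase on average) reaches the level of Odc1 (130.7), and Ass1 on cholate approaches Asl.

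By position, Sms and Sat1 lie 3.21 Mb apart on chromosome X, whereas Arg2 and Odc1 are 59.5 Mb apart on chromosome 6 and Arg1 and Oat 183 Mb apart on chromosome 1.

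The surrounding pathway was followed through 65 further genes, all found in the table, of which 52 were tested. Their lists were chosen with earlier results of these data known, which limits the p values and shares given here. The edgeR test called 1 of the 52 lower (Sat2) and 0 higher, or 1.92%, beside 3.21% of all genes. Without the fold criterion 2 passed (Sat2 and Glul, 3.85% beside 4.5% of all genes), and 12 had an unadjusted p under 0.05 (23.1% beside 29% of all genes). DESeq2 called 4 (7.69% beside 6.36%) and limma-voom 2 (3.85% beside 3.9%). Of the 52, 29 were above and 23 below 0, the median log2 change was 0.03, and in 6 the diets did not overlap.

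Polyamine oxidation and acetylation was the list with a called gene, 1 of 4 tested. Sat2, a relative of Sat1 best known for acetylating thialysine (gene ID 360547, chromosome 10, 56227703 to 56229796, plus strand), measured 2.56, 1.34, 2.24, 2.41 and 2.56 CPM in control rats and 0.369, 0.472, 0.402, 0.626 and 0.380 CPM in cholate rats. It fell by 2.30 on the log2 scale (SE 0.28, edgeR adjusted p = 0.00106), with no overlap. It rests on 303 and 63 counts and overlaps Shbg on the opposite strand, from which it cannot be told apart unless counting used the strand.
Aoc1, the diamine oxidase that degrades putrescine and histamine, was far more abundant. It measured 300.0, 242.6, 205.8, 233.0 and 230.8 CPM in control rats and 59.3, 10.1, 69.2, 92.9 and 64.5 CPM in cholate rats. The highest cholate rat was below the lowest control rat by more than the control range. The means were 242.4 ± 34.9 and 59.2 ± 30.3 CPM, a log2 change of -2.04 (SE 0.43) with an edgeR adjusted p of 0.0122, just over the threshold. DESeq2, limma-voom, scaling by library size alone and the fit without cholate rat 4, the lowest value, each called it, with adjusted p from 3.81e-05 to 0.0448 over all settings. The oxidases Paox, at 24.3 ± 6.49 and 28.1 ± 7.45 CPM, and Smox, at 14.3 ± 4.04 and 12.5 ± 2.67 CPM, overlapped between diets (edgeR adjusted p = 0.598 and 0.625).

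In polyamine synthesis, antizyme and methylthioadenosine salvage, 0 of 12 tested genes were called by edgeR, with 4 at an unadjusted p under 0.05, 1 called by DESeq2 and 0 by limma-voom. Oaz1, the antizyme that targets ornithine decarboxylase for degradation, measured 302.3 ± 58.1 and 370.4 ± 115 CPM (log2 change 0.29, edgeR adjusted p = 0.405). Azin1, the antizyme inhibitor, measured 96.3 ± 29.8 and 121.1 ± 44.9 CPM (0.33, adjusted p = 0.504 by edgeR). Mat2a, which makes S-adenosylmethionine outside the liver, measured 189.6 ± 46.0 and 124.9 ± 18.8 CPM (-0.60, edgeR adjusted p = 0.0444). Mat1a, its liver counterpart, was the gene DESeq2 called, at 1.24 ± 0.333 and 0.482 ± 0.163 CPM (-1.35, edgeR adjusted p = 0.0204).

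Among the 3 tested genes of hypusine synthesis, by which spermidine modifies the translation factor eIF5A, all had positive log2 changes (0.43 to 0.58) and 0 were called by edgeR, DESeq2 or limma-voom, with 1 at an unadjusted p under 0.05. Eif5a itself measured 111.2 to 183.6 CPM in control rats and 154.0 to 258.7 on cholate (log2 change 0.58, SE 0.18, edgeR adjusted p = 0.0517), and it overlaps Gps2 on the opposite strand. Dohh changed by 0.46 (edgeR adjusted p = 0.214) and Dhps by 0.43 (adjusted p = 0.180 by edgeR), so neither difference passed.

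The proline and glutamate link had 0 of 8 tested genes called by edgeR, DESeq2 or limma-voom, with 2 at an unadjusted p under 0.05. Glul, glutamine synthetase, passed the false discovery rate without a fold over 2. It measured 975.6, 1052, 855.4, 1046 and 949.1 CPM in control rats and 586.5, 620.6, 644.8, 719.0 and 593.8 CPM in cholate rats. The diets did not overlap and the log2 change was -0.62 (SE 0.10, edgeR adjusted p = 0.00409). Glud1, glutamate dehydrogenase, measured 186.9 ± 18.4 and 206.6 ± 11.9 CPM (0.14, adjusted p = 0.394 by edgeR), and Pycrl, a pyrroline carboxylate reductase of proline synthesis, 34.9 ± 2.45 and 40.5 ± 7.11 CPM (0.21, edgeR adjusted p = 0.348). Aldh18a1, which makes pyrroline carboxylate from glutamate, had almost no counts and was left out of the test. As for Srm, whether this reflects its expression or how reads were mapped and counted was not tested.

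For citrulline supply and the urea cycle, 0 of 5 tested genes were called by edgeR, DESeq2 or limma-voom, with 1 at an unadjusted p under 0.05. That was Slc25a13, the mitochondrial aspartate and glutamate carrier, whose exported aspartate is the partner of citrulline in the Ass1 reaction. It measured 32.3 to 41.4 CPM in control rats and 42.7 to 85.6 on cholate, without overlap (log2 change 0.79, SE 0.18, edgeR adjusted p = 0.0174), and was called in the 6 rats with negative loadings alone (1.05). Several genes are annotated on its opposite strand. Nags, which makes the activator of the urea cycle, measured 16.6 ± 2.24 and 14 ± 8.91 CPM (-0.25, adjusted p = 0.740 by edgeR), with cholate rats 8 and 11 at 23.5 CPM and the others at 4.65 to 10.9. Its log2 change was -1.14 (edgeR adjusted p = 0.0124) in the 6 rats with negative loadings alone and ran from -0.55 to -0.03 when single rats were left out. Slc25a15, the mitochondrial ornithine carrier, measured 7.97 ± 1.33 and 8.16 ± 2.38 CPM (0.04, edgeR adjusted p = 0.940). Otc, which makes citrulline in liver and small intestine, was at 0.711 ± 0.214 and 1.23 ± 0.688 CPM (log2 change 0.75, edgeR adjusted p = 0.230), or 0.40 without cholate rat 11.

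Of the other arginine users and the enzymes of the nitric oxide synthase cofactor tetrahydrobiopterin, 0 of 8 tested were called by edgeR, 1 had an unadjusted p under 0.05, and DESeq2 called 1 and limma-voom 0. The gene in question, Spr (sepiapterin reductase, the last step of cofactor synthesis), measured 9.96 to 18.7 CPM in control rats and 24.1 to 63.5 on cholate, without overlap (log2 change 1.21, SE 0.29, edgeR adjusted p = 0.0196). The abundant genes of the list, Qdpr (66.4 ± 1.88 and 68.6 ± 15.5 CPM), Gamt (41.9 ± 6.83 and 44.8 ± 16.5 CPM) and Pts (32.5 ± 3.30 and 29.4 ± 2.53 CPM), had edgeR adjusted p of 0.882, 0.846 and 0.481. Nos1 had 0 counts throughout, and Nos3 had almost none. Whether that reflects their expression or how reads were mapped and counted was not tested.

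Transport of cationic amino acids and polyamines had 0 of 12 tested genes called by edgeR, DESeq2 or limma-voom, with 1 at an unadjusted p under 0.05. That was Slc25a29, a mitochondrial carrier of basic amino acids, which measured 40.5 to 48.9 CPM in control rats and 53.4 to 64.9 on cholate, without overlap (log2 change 0.41, SE 0.11, edgeR adjusted p = 0.0372). Slc6a14, a broad amino acid carrier that takes up arginine, measured 102.9 to 307.9 CPM in control rats and 80.6 to 408.7 on cholate, a range within each diet far wider than the difference of 0.19 (edgeR adjusted p = 0.831). Slc3a2, the heavy chain shared by several amino acid exchangers, measured 81.6 ± 7.51 and 69.9 ± 11.2 CPM (-0.22, adjusted p = 0.299 by edgeR), and Slc18b1, a vesicular polyamine transporter, 66.5 ± 11.1 and 73.8 ± 8.24 CPM (0.15, edgeR adjusted p = 0.544).

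**Figure D5:**
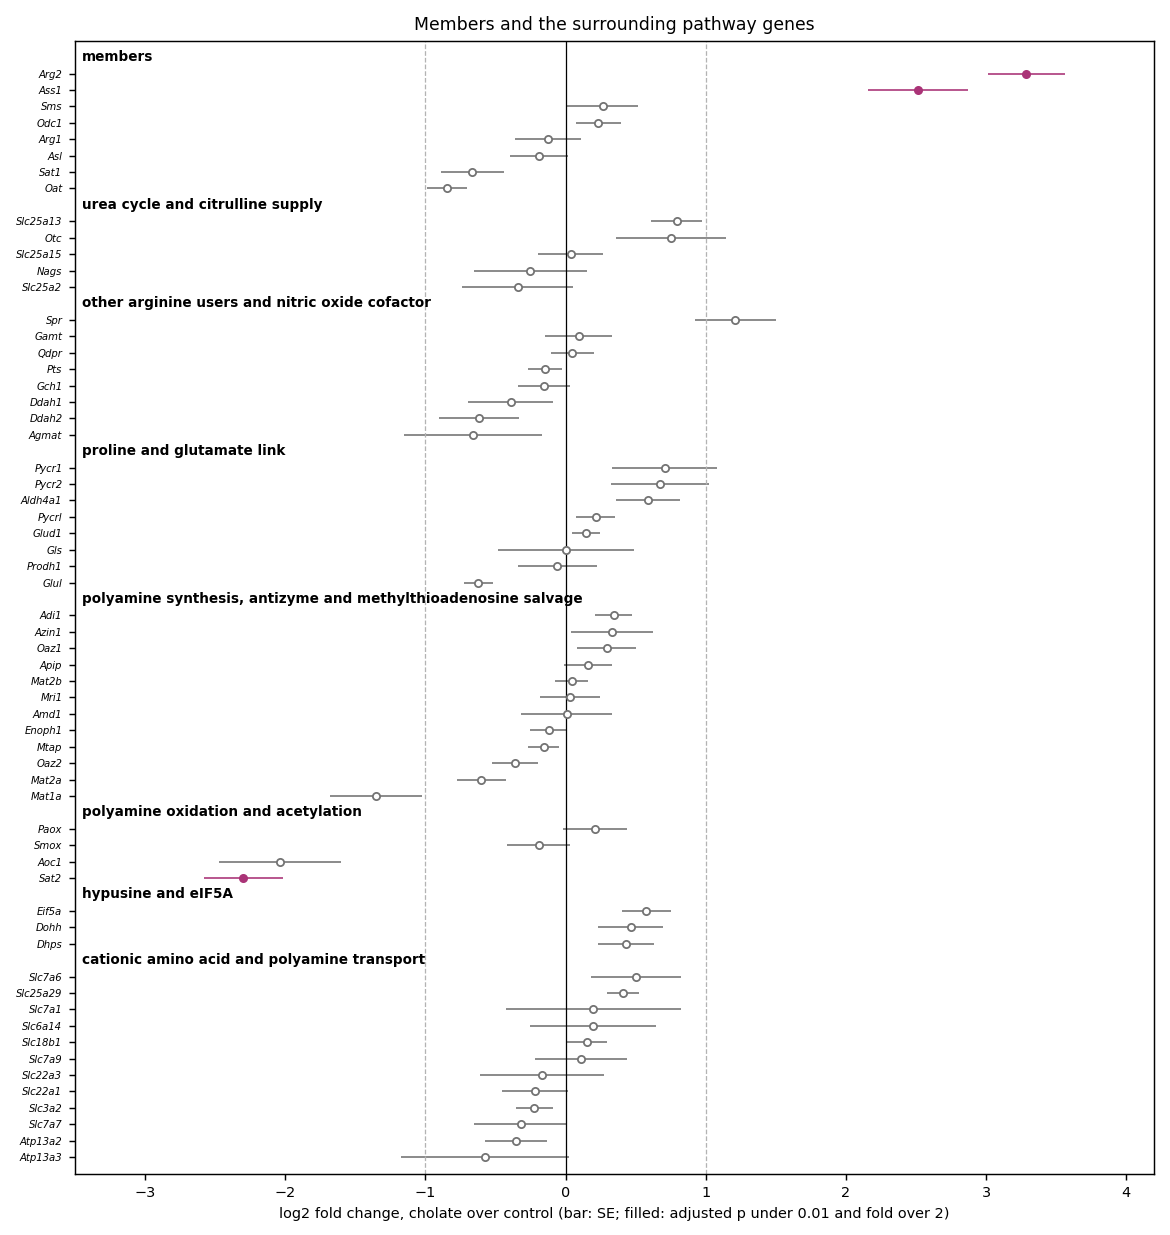
Log2 fold change of cholate over control (horizontal axis, bars are SE) for the 8 tested members and the 52 tested pathway genes, grouped by list, with called genes filled and dashed lines at a fold of 2. Arg2 and Ass1 lie at 3.29 and 2.51, Sat2 is the called pathway gene at -2.30, and most others lie between the dashed lines.

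Genes whose levels across rats were most like those of Arg2 and Odc1 were listed by Pearson r of log2(CPM + 0.5) over the 10 libraries, among 9765 other genes, as a description in which all values share the libraries and their depth. After subtraction of each diet's mean, Wsb2 came first for Arg2 (r = 0.858), then Mrpl51 (0.836), Dnajb14 (0.799), Gpr35 (0.785) and Src (0.774). As measured, with the diet difference left in, they were Wsb2 (0.989), Mthfd1 (0.978), Nsdhl (0.975), Fa2h (0.974) and Fbln5 (0.974). For Odc1 the 5 were Abcf1 (0.950), Gmps (0.937), Yars (0.921), Eif2b3 (0.915) and Creb3l1 (0.907) after subtraction, and Abcf1 (0.962), Gmps (0.950), Eif2b3 (0.934), Rraga (0.927) and Nostrin (0.891) as measured. Wsb2 headed both lists of Arg2, and Abcf1 and Gmps headed both lists of Odc1. Both lists of a gene come from the same 10 libraries, so a shared name is no independent result. Each list holds the 5 highest of 9765 values, and whether they exceed what such picking gives was not tested.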

How the data were processed

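RNA from distal colon epithelial cells of 5 control and 5 cholate-fed rats was sequenced as stranded poly(A) libraries, per the labels. Per the submitters' processing notes and the series' design text, reads were demultiplexed with bcl2fastq 1.8.4, mapped with BWA-MEM 0.7.12-r1039 to the rn6 build and scaled by TMM in edgeR 3.16.2. The sources used here do not give the counting program or its strand setting. The authors deposited raw counts per gene, the unit used for all results, and a normalized signal (CPM on the TMM effective library size). That signal was used only to check scaling. Its median ratio to the recomputed CPM was 0.984 to 1.02 over the libraries. The deposited lengths and coordinates are in bases. Both a length and an effective length are given per gene, and deposited length here means the effective length, of which 86.6% are multiples of 3.

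Counts were filtered with filterByExpr, and the edgeR 4.0.16 quasi-likelihood test was run on TMM-scaled libraries (robust, diet as the only term, Benjamini-Hochberg over 12385 genes) in R 4.3.3. Of 23422 genes, 6442 had no reads. DESeq2 1.42.0, limma-voom (limma 3.58.1), other scalings and filters, and leaving out each rat were alternatives. The procedure was tested on simulated data. Intervals and floors cover counting error only.

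Members, pathway lists and marker lists were chosen with earlier results of these data known. All 10 members are described, and from each pathway list the called genes and the 3 with the highest mean CPM may be named. Mat1a, Spr, Slc25a29, Otc, Aldh18a1, Nos1 and Nos3 fall outside this rule and were chosen after their values were seen. Marker lists covered colonocytes, goblet, enteroendocrine, proliferating, stroma and smooth muscle cells, macrophages and granulocytes, as well as endothelium (sums of 4.07 to 8.28 CPM in controls and 1.90 to 4.15 on cholate, 1 of 3 tested called lower), T and NK cells (3.28 to 6.54 and 2.25 to 7.5 CPM) and B and plasma cells (135.9 to 214.5 and 150.3 to 338.2 CPM), where 0 genes were called by edgeR, DESeq2 or limma-voom and 0 had an unadjusted p under 0.05.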

Additional observations from a re-analysis of the deposited data

Results flagged for a closer look

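All members and named pathway genes were examined, which gave 74 groups of 5 rats whose values were not all 0. In 9 of them 1 rat lay far from the other 4 (gap over range above 0.71, which chance gives in about 1 of 20 groups), and 1 of the 9 was a member. That was Nos2 in cholate rat 4, the cholate rat with its single count, at 0.0205 CPM, and Nos3 was likewise counted only in that rat, at 0.0616 CPM. With the other 4 cholate rats at 0 counts, both groups met the rule by construction. The rate of 1 of 20 therefore does not apply to them. Sat2 was low in control rat 2, at 1.34 CPM. Nags was low in control rat 5, at 12.7 CPM. Otc was high in cholate rat 11, at 2.43 CPM. Spr and Pycrl were both high in cholate rat 8, at 63.5 and 52.8 CPM. In control rat 9 Slc3a2 was high, at 94.9 CPM, and Mat1a low, at 0.653 CPM.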

How the results depend on the processing

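Arg2 and Ass1 were the members called in all 18 alternatives, and no log2 change of a member moved by more than the spread between rats: Arg2 ran from 3.09 to 3.43, Ass1 from 2.33 to 2.69, Oat from -0.93 to -0.80, Sat1 from -0.86 to -0.55 and Odc1 from 0.13 to 0.40. These fits reuse the same rats and the comparison that chose the members, so for members they describe the processing only. Sat2 was called in all 17 alternatives that tested it (adjusted p 1.63e-10 to 0.00498). It was not tested at a mean of at least 5 CPM, where 0 pathway genes were called. DESeq2 called 4 pathway genes (Aoc1, Mat1a, Sat2 and Spr), limma-voom and scaling by library size 2 (Aoc1 and Sat2), and control rats 1, 2 and 6 against cholate rats 3, 4 and 7 alone, a setting chosen after seeing the data, 3 (Mat1a, Sat2 and Slc25a13). Leaving out 1 rat gave 1 to 2, with Mat1a added without control rat 9 and Aoc1 without cholate rat 4.

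Over all genes 398 were called, 788 by DESeq2 and 1003 in those 6 rats. Leaving out 1 rat gave 168 to 450: 168, 192 and 200 when control rat 2, 1 or 6 was omitted, and 207 and 221 when cholate rat 4 or 7 was. The cause was not tested. Of called genes 34.2% were higher, with 28.1% to 42.9% over the alternatives. No paired analysis was possible because the diets share no rat numbers. Low counts limit Nos2 and Srm, which had 25 and 6 counts in all control rats and 1 and 15 in all cholate rats.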
